A study of Rattus norvegicus with 5 samples.

Results

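The cells described here are leukocytes, the white blood cell lineages, found in primary cultures of neonatal rat ventricle. They were chosen by a rule on measured values: a barcode with at least 500 detected genes, at least 1 UMI of Ptprc (ENSRNOG00000000655), and at least 1 UMI of Tyrobp (ENSRNOG00000020845) or Fcer1g (ENSRNOG00000024159), a UMI being the molecular tag by which copies of 1 captured RNA are counted once. The rule found 746 of 36996 cells in 5 libraries. Ventricular myocytes and non-myocytes came from wild-type Sprague Dawley rats at postnatal day 2 and had been given an adenovirus carrying GFP or one carrying TBX18, an embryonic T-box transcription factor of the sinoatrial node region. The groups are GFP at day 3, TBX18 at day 3, GFP at day 14, TBX18 at day 14, and TBX18 with 0.2 µM A83-01, an inhibitor of TGF-beta type I receptors; that last sample is placed at day 14 by its title, while its treatment label gives 3 days. Each group has 1 library, so differences between groups carry no replicate check and no p-value, and every interval below is an exact 95% interval that covers counting error only. Where a count was 0, the share that 3 cells would give is printed as the limit, with the exact upper limit beside it.

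Ptprc encodes the common leukocyte antigen, a transmembrane tyrosine phosphatase carried by nucleated cells of the blood lineages and not by cardiac myocytes, fibroblasts or endothelium. Tyrobp and Fcer1g encode small membrane adaptors that hand signals from activating and Fc receptors to the Syk kinase, and they are abundant in macrophages, monocytes, neutrophils, mast cells and natural killer cells. Macrophages are the leading resident leukocytes of the mammalian heart. The 3 genes of the rule do not separate these lineages. None of the tables' other gene IDs could be paired with a name (0 matched the reference table), so that no subtype is given here and other genes appear as counts and as 4 IDs.

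Leukocytes under the rule, which passes over any without an adaptor UMI, were a small fraction of every culture. TBX18 cultures held a smaller fraction of them than GFP cultures at both days. At day 3 they made up 286 of 8128 cells in the GFP culture, 3.52% (interval 3.13 to 3.94), and 161 of 6489 in the TBX18 culture, 2.48% (2.12 to 2.89). At day 14 they made up 174 of 6424 cells with GFP, 2.71% (2.33 to 3.14), and 79 of 8337 with TBX18, 0.948% (0.751 to 1.18). The culture with TBX18 and A83-01 held 46 of 7618, 0.604% (0.442 to 0.805). The GFP share was thus 1.42 times the TBX18 share at day 3 and 2.86 times at day 14, and at neither day did the intervals overlap. The intervals of the 2 TBX18 cultures at day 14, without and with A83-01, did overlap.

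The order of the shares was followed over 10 definitions of a leukocyte. TBX18 lay below GFP under all 10 at both days: the GFP share was 1.96 to 3.42 times the TBX18 share at day 14, with intervals apart under all 10, and 1.17 to 1.60 times at day 3, with intervals apart under 7. The culture with A83-01 lay below TBX18 alone under all 10, with intervals apart under 1 of them. With TBX18 the share was lower at day 14 than at day 3 under all 10, with intervals apart under 9. With GFP it was lower at day 14 under 8; it was higher when every cell was thinned to 5000 UMIs (2.01% against 1.58%) and when the deeper day 3 cluster described below was left out (2.71% against 2.42%), both with overlapping intervals. For the day 14 libraries some of the 10 definitions could not differ from the rule. Dropping the minimum of genes, keeping to the range of genes and UMIs of day 14, and leaving out the deeper day 3 cluster kept the same cells. Those definitions gave 174 of 6424 with GFP, 79 of 8337 with TBX18 and 46 of 7618 with A83-01, as the rule did. They add nothing to the counts of definitions between day 14 libraries. A share is a fraction of the cells recovered, and fewer leukocytes cannot be told apart from more cells of other kinds.

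**Figure D1:**
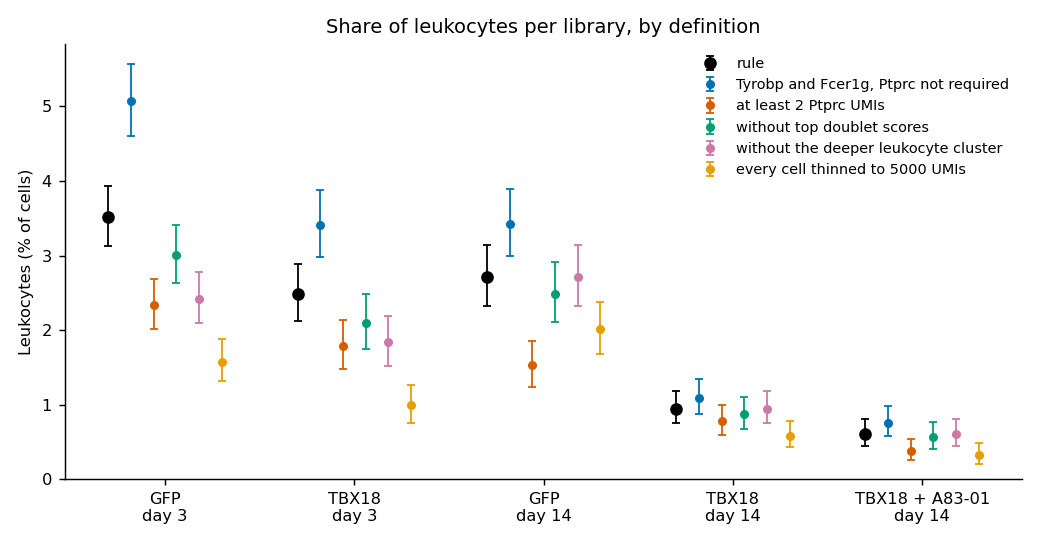
Leukocytes as a percentage of cells (vertical axis) in each of the 5 libraries (horizontal axis). Points are shares under the rule and 5 other definitions, and bars are exact 95% intervals; both TBX18 libraries of day 14 lie below 1.5% under each definition drawn, and the other 3 libraries lie higher under the rule.

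Nearly all leukocytes had both adaptors, where the rule asks for 1 of them beside Ptprc. Of the 746 leukocytes, 741 had all 3, 2 had Ptprc and Tyrobp only, and 3 had Ptprc and Fcer1g only. Of 772 cells with a Ptprc UMI, 26 lacked both adaptors and were not counted. An adaptor UMI without Ptprc was found at day 3 in 909 other cells with GFP (11.6%) and 570 with TBX18 (9.01%). At day 14 it was found in 154 with GFP (2.46%), 186 with TBX18 (2.25%) and 83 with A83-01 (1.10%). Ptprc was the sparse member: its median was 2 UMIs per leukocyte in the GFP day 3, TBX18 day 3 and GFP day 14 libraries, 3 with TBX18 at day 14 and 2.5 with A83-01, and 248 leukocytes (33.2%) entered on a single Ptprc UMI. The threshold of 500 genes did not decide membership at day 3. None of the 731 barcodes under 500 genes with GFP, nor of the 292 with TBX18, met the rule on the 3 genes. The day 3 leukocyte with the fewest genes had 958. The day 14 tables begin at 1997 genes with GFP, 2001 with TBX18 and 1998 with A83-01. The leukocytes with the fewest genes there had 1997, 2075 and 2156. Leukocytes with fewer genes would be absent from those tables, and what this does to the day 14 values was not tested.

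The adaptors were abundant, and they split the cells far more widely than Ptprc did. The median leukocyte held 103 Tyrobp UMIs with GFP at day 3, 105 with TBX18 at day 3, 24 with GFP at day 14, 35 with TBX18 at day 14 and 41 with A83-01. The matching Fcer1g medians were 72, 68, 17, 24 and 30 UMIs. Most other cells had none, and those with fewer than 10 UMIs of both adaptors together, but at least 1, had a median of 1 and at most 3 to 8 across libraries. A further 210 cells had 10 or more adaptor UMIs but no Ptprc UMI: 101, 46, 41, 11 and 11 in the library order above. Their Tyrobp medians, 103, 98.5, 25, 26 and 42 UMIs, and Fcer1g medians, 71, 62.5, 17, 14 and 31 UMIs, lay near those of the leukocytes in 4 libraries and below them with TBX18 at day 14. They stand among the other cells under the rule, and counting every cell with 10 or more adaptor UMIs gave shares of 4.75%, 3.17%, 3.33%, 1.06% and 0.709%.

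**Figure D2:**
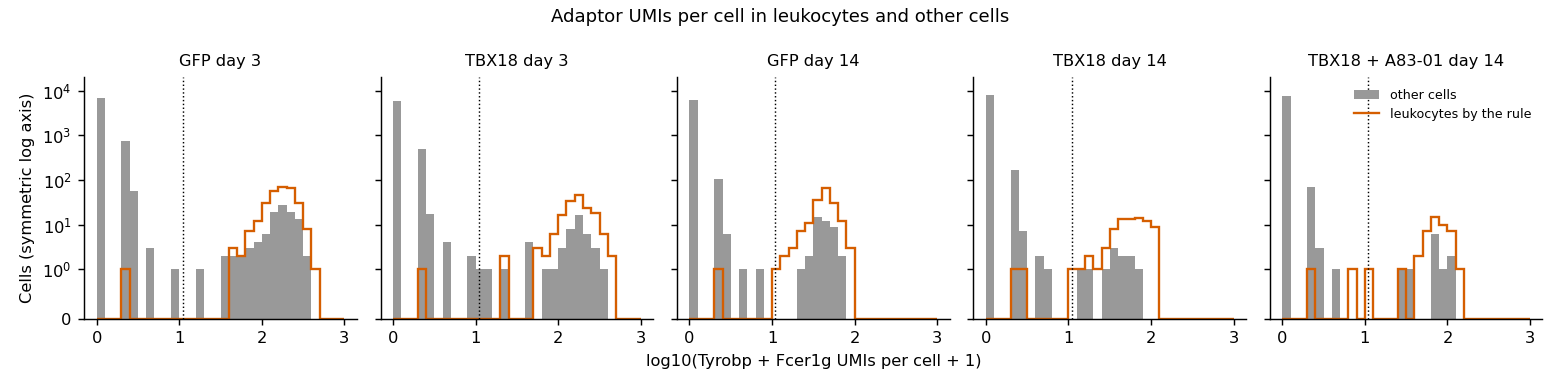
Number of cells (vertical axis, logarithmic above 1) by the log10 of Tyrobp plus Fcer1g UMIs per cell plus 1 (horizontal axis), for leukocytes under the rule (outline) and all other cells (filled), 1 panel per library. The dotted line marks 10 UMIs; all but 8 leukocytes lie at or to the right of it, over a smaller second group of other cells.

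As CPM, the UMIs of a gene scaled to the summed UMIs of the genes listed in all tables, Tyrobp stood at 3919 CPM in the leukocytes with GFP at day 3, 3616 with TBX18 at day 3, 2520 with GFP at day 14, 2262 with TBX18 at day 14 and 2664 with A83-01. Outside the leukocyte-rich clusters described next it stood at 3.06, 2.47, 0.644, 0.826 and 0.376 CPM, with a UMI in 6.11%, 4.84%, 0.853%, 1.14% and 0.463% of those cells; the part of free RNA in these UMIs was not tested. Fcer1g stood at 2861, 2345, 1688, 1599 and 1815 CPM in leukocytes. Ptprc stood at 94.1, 90.0, 210.2, 244.8 and 160.4 CPM. These levels were used by the rule and are given as a description. From day 3 to day 14 the Ptprc level was higher by 1.16 (interval 0.97 to 1.34) on the log2 scale with GFP and by 1.44 (1.23 to 1.66) with TBX18, while the log2 differences were -0.64 and -0.68 for Tyrobp and -0.76 and -0.55 for Fcer1g. Without the deeper day 3 cluster, the differences with GFP and with TBX18 were 0.79 and 1.04 for Ptprc, -1.18 and -1.11 for Tyrobp, and -1.28 and -0.96 for Fcer1g. The rule requires at least 1 Ptprc UMI in every leukocyte, which is a higher level in a cell of lower depth. The median leukocyte of day 14 was shallower, and the part of depth in the Ptprc difference was not tested. Among cells within the day 14 range of genes and UMIs, the Ptprc difference was 0.83 (0.63 to 1.03) with GFP and 1.01 (0.77 to 1.25) with TBX18. That range sets limits and does not make depths equal between days.

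Leukocytes held 21822 UMIs in the median with GFP at day 3, 24176 with TBX18 at day 3, 8246.5 with GFP at day 14, 15237 with TBX18 at day 14 and 12481 with A83-01. Other cells of the same libraries held 23308, 29131, 15807, 15614 and 17627. Depth was therefore closest to that of other cells with TBX18 at day 14 (0.976 times) and farthest with GFP at day 14 (0.522 times). The day 14 tables hold no cell over 33982 UMIs, whereas 26.9% of the GFP and 32.3% of the TBX18 leukocytes of day 3 exceeded that value, as did 12.5% and 30.7% of the other cells. Within a library, the adaptor level per leukocyte (Tyrobp plus Fcer1g) differed 1.57 to 2.39 times between the lower and upper quartiles. It was lower in deeper leukocytes in all 5 libraries, with Spearman's rho from -0.73 to -0.49 across cells; the level has the depth as its denominator, and cells are not replicates.

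When cells of each library were clustered with the 3 genes of the rule and the virus features left out, the leukocytes still came together: 730 of 746 (97.9%) fell in clusters of which at least 25% were members. These leukocyte-rich clusters held 931 cells, of which 929 had at least 10 adaptor UMIs, and only 19 cells at that level lay elsewhere. Clustering used the other genes of the same cells, and so this is a description and no independent test of the label. Each day 14 library had 1 such cluster, of 209 cells with GFP, 87 with TBX18 and 54 with A83-01. Each day 3 library had 2.

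The 2 clusters of day 3 differed in depth and content. The first held 262 cells with GFP and 138 with TBX18, with median depths of 17599 and 19891 UMIs. The deeper one held 119 and 62 cells, with median depths of 39568 and 43323 UMIs, and 68.9% and 80.6% of its cells lay above the deepest day 14 cell. Scrublet, which scores how much a barcode resembles a simulated mixture of 2 cells, gave the first cluster median scores of 0.0235 and 0.0215 and the deeper one 0.148 in both libraries. Of the deeper cluster, 57.1% and 66.1% of cells were among the top 6% of scores of their library, and of the first cluster 0%. Tyrobp stood at 6104 and 5261 CPM in the first cluster and at 2089 and 1955 CPM in the deeper one.

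The content of the deeper cluster lay between that of the first and that of cells outside. Genes that were low in the first cluster of one day 3 library were summed in the other, so that genes and values came from different libraries. With GFP, 624 genes chosen in the TBX18 library summed to 4.63% of their outside level in the first cluster and to 49.6% in the deeper one. With TBX18, 736 genes chosen in the GFP library summed to 7.97% and 51.6%. Genes high in the first cluster, chosen the same way, stood in the deeper cluster at 41.4% of their level in the first, in both libraries. The part of barcodes that hold more than 1 cell in these values was not tested. Without the deeper cluster the day 3 shares were 2.42% with GFP and 1.84% with TBX18.

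**Figure D3:**
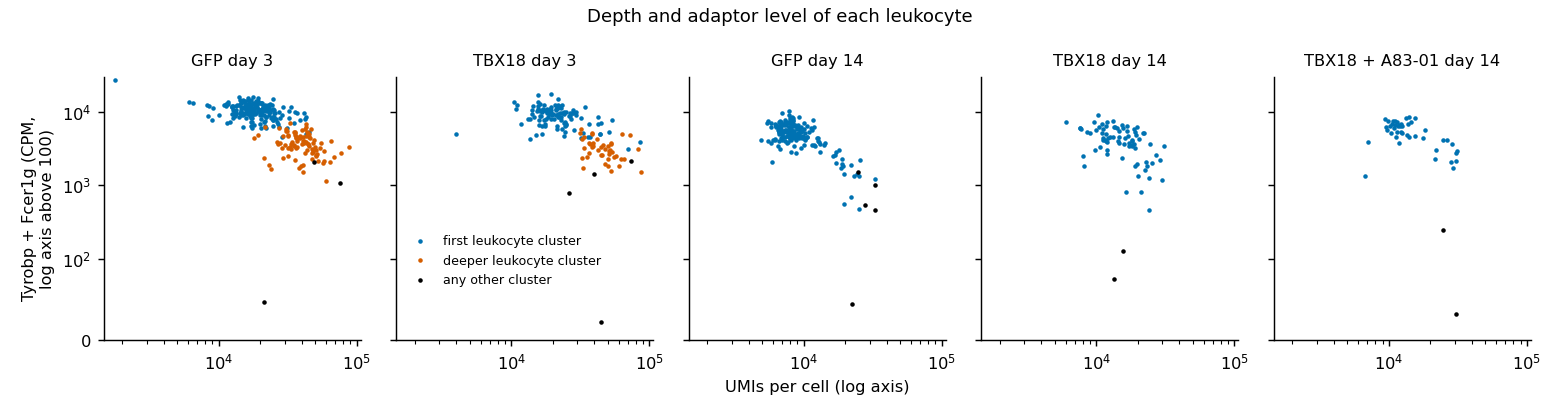
Each point is 1 leukocyte, with its UMIs (horizontal axis, logarithmic) against the summed level of Tyrobp and Fcer1g in CPM (vertical axis, logarithmic above 100), 1 panel per library, coloured by cluster. The day 3 panels show a second, deeper group with a lower adaptor level, while each day 14 panel has a single leukocyte-rich cluster.

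The share of cells with a virus transcript was lower in leukocytes than in cells outside the leukocyte-rich clusters in both GFP cultures and in the TBX18 culture of day 3. With GFP at day 3, EGFP was detected in 29 of 286 leukocytes, 10.1% (6.90 to 14.2), against 37.2% (36.1 to 38.3) of cells outside, at median depths of 21822 and 23339 UMIs. Leukocytes of the first cluster gave 3.14% (1.16 to 6.71) and those of the deeper cluster 23.9% (15.6 to 33.9). With every cell thinned to 5000 UMIs the shares were 1.75% in leukocytes and 16.6% outside. With GFP at day 14, EGFP was detected in 12 of 174 leukocytes, 6.90% (3.61 to 11.7), against 23.7% (22.7 to 24.8) outside, and after thinning in 4.62% against 13.4%. EGFP was found in 0 of the 161, 79 and 46 leukocytes of the 3 cultures without the GFP virus, which allows shares of up to 1.86%, 3.80% and 6.52% at 3 cells (exact upper limits 2.27%, 4.56% and 7.71%).

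The TBX18 virus gave the same order at day 3 and no resolved difference at day 14. At day 3 ZsGFP, a fluorescent reporter seen in these tables with the TBX18 virus, was detected in 7 of 161 leukocytes, 4.35% (1.77 to 8.75), against 20.2% (19.2 to 21.2) outside. The human TBX18 transcript was detected in 4 of 161, 2.48% (0.681 to 6.24), against 17.7% (16.8 to 18.7). All 4 of those leukocytes lay in the deeper cluster, and the first had 0 of 114, which allows a share of up to 2.63% at 3 cells (exact upper limit 3.18%). ZsGFP was detected in 2 of 114 leukocytes of the first cluster and in 5 of 43 of the deeper one. At day 14 the outside shares were 2.41% for ZsGFP and 2.76% for TBX18, and leukocytes had 2 and 1 cells of 79. With A83-01 the outside shares were 3.64% and 3.93%, and leukocytes had 1 and 2 cells of 46; a difference from the outside cells was not detectable at this number of leukocytes. Free viral RNA in the droplets can give such UMIs, and its part was not tested.

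**Figure D4:**
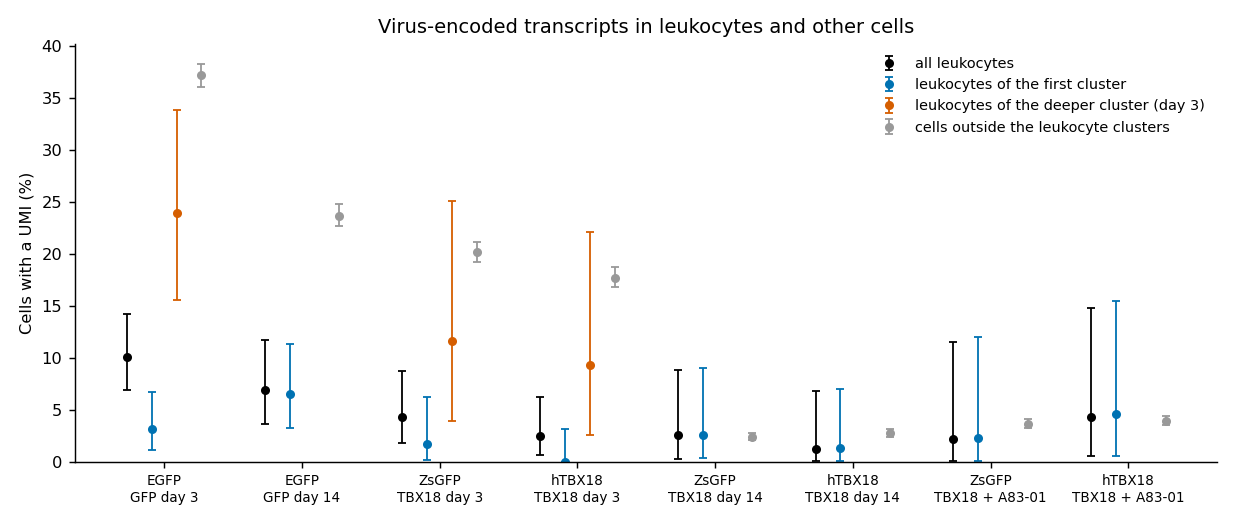
Cells with at least 1 UMI of a virus-encoded transcript, in percent (vertical axis), by transcript and library (horizontal axis). Points are shares with exact 95% intervals for all leukocytes, leukocytes of each cluster and cells outside; the deeper day 3 cluster lies between the first cluster and the outside cells for EGFP, at 23.9%.

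The profile of leukocytes against all other cells of the same library was led by a shared set of genes. Among 5154 genes whose mean level reached 20 CPM, 236 were at least 4-fold higher in leukocytes in all 5 libraries (4.58%), and 2 were at least 4-fold lower in all 5 (0.0388%) on the scale of CPM plus 0.5. For 1 of those 2 the fold in the TBX18 library of day 14 rests on 0 UMIs and on the added 0.5, as given below. The rule chose these cells on the same profiles, so the counts describe the cells and test nothing. By library, 345, 330, 324, 302 and 330 genes were higher, and of the genes higher in one library 76.5% to 96.1% were higher in another. Lower genes numbered 172, 145, 195, 289 and 175 by library, of which 1.03% to 91.7% were lower in another. The number lower in all 5 was 76 without cells of top doublet scores, 87 with leukocytes of the first cluster only and 53 without the library of GFP at day 14, for which the counts of higher genes were 262, 264 and 240. In addition, 53 of 15071 genes (0.352%) had a UMI in at least 50% of leukocytes and in at most 5% of cells outside the leukocyte-rich clusters in all 5 libraries.

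Outside the 3 genes of the rule, the 2 IDs with the highest smallest difference over the 5 libraries were ENSRNOG00000003622 and ENSRNOG00000005825. ENSRNOG00000003622 stood at 244.0 CPM in leukocytes with GFP at day 3, 300.9 with TBX18 at day 3, 993.7 with GFP at day 14, 1641 with TBX18 at day 14 and 860.7 with A83-01, and at 1.09 to 3.87 CPM in other cells. It was detected in 93.7% to 99.4% of leukocytes. ENSRNOG00000005825 stood at 2196, 2628, 12584, 15643 and 3855 CPM in leukocytes and at 25.7, 15.7, 56.7, 24.8 and 3.10 CPM in other cells, the latter including the 210 cells with many adaptor UMIs. It was higher at day 14 than at day 3 by 2.52 (2.49 to 2.55) on the log2 scale with GFP and by 2.57 (2.54 to 2.61) with TBX18, and lower with A83-01 than with TBX18 alone by 2.02, a log2 difference of -2.02 (-2.08 to -1.96). ENSRNOG00000003622 followed the same order, with log2 differences of 2.03, 2.45 and -0.93. These sizes depended on the cells and the scaling by more than the intervals cover. Without the deeper day 3 cluster, the day differences with GFP and with TBX18 were 2.01 and 2.11 for ENSRNOG00000005825, and 1.52 and 2.01 for ENSRNOG00000003622. Under median-of-ratios scaling the 3 differences were 2.18, 2.18 and -1.84 for ENSRNOG00000005825, and 1.68, 2.06 and -0.75 for ENSRNOG00000003622.

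The 2 genes counted as lower in leukocytes in all 5 libraries were ENSRNOG00000015904 and ENSRNOG00000033844. ENSRNOG00000015904 stood at 7.62, 45.5, 19.7, 20.1 and 9.52 CPM in leukocytes against 75.3, 207.7, 118.7, 153.1 and 50.1 CPM in other cells, in the same library order. ENSRNOG00000033844 stood at 1.71, 18.9, 5.06 and 9.52 CPM in the leukocytes of the 4 libraries other than TBX18 at day 14, where it had 0 UMIs, against 12.3, 125.6, 22.6 and 49.1 CPM in other cells of those libraries and 5.48 CPM in those of TBX18 at day 14. Taken against 3 counts, ENSRNOG00000033844 was at least 2.27-fold lower there (1.84-fold by the exact limit), short of 4-fold. That leaves ENSRNOG00000015904 alone past 4-fold in all 5 libraries, by its point values. With A83-01 its log2 difference was -2.39, and the interval of -3.71 to -1.35 includes differences short of 4-fold. The leukocyte values rest on 58, 222, 35, 25 and 7 UMIs for the first and on 13, 92, 9, 0 and 7 UMIs for the second. The level of ENSRNOG00000015904 with TBX18 at day 3 depended on the deeper cells: without the deeper cluster it was 22.3 CPM, and it was 10.2 CPM among cells within the day 14 range of genes and UMIs.

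Between libraries, the percentage of genes that differed in leukocytes was highest between days and lowest between viruses at day 3. A gene was counted as past 2-fold where its whole interval lay beyond that fold. Between TBX18 and GFP at day 3, 37 of 4455 genes passed (0.831%), 32 higher and 5 lower with TBX18. At day 14, 185 of 5339 passed (3.47%), 116 higher and 69 lower. Between the TBX18 cultures with and without A83-01, 285 of 5223 passed (5.46%), 93 higher and 192 lower with the inhibitor. From day 3 to day 14, 565 of 4917 passed with GFP (11.5%), 420 higher and 145 lower, and 655 of 5023 with TBX18 (13%), 519 higher and 136 lower. The 2 day comparisons use different libraries, whereas the TBX18 library of day 14 enters 3 of the 5 comparisons. The day 14 tables were deposited in another form than those of day 3. They hold no cell under 1997 genes or over 33982 UMIs, so that day cannot be told apart from how the tables were made. Leukocyte UMIs also ran from 737168 with A83-01 to 7607279 with GFP at day 3. More UMIs narrow an interval, and so the percentages were not reached on equal terms.

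Other cells, drawn to the same number of UMIs as the leukocytes of their library, gave 2.76%, 2.22%, 4.82%, 15% and 18.7% in the same order. With all leukocytes, their percentage was thus below that of other cells between viruses at day 3 and in both day comparisons. It was above that of other cells between viruses at day 14 and for A83-01. Without the deeper day 3 cluster the leukocyte percentage between days was 15.8% with GFP, above that of other cells, and 15.6% with TBX18, still below it. Other cells were kept at the number of UMIs of all leukocytes for this. None of these differences was tested. The split between higher and lower depended on the scaling. Under median-of-ratios scaling the day comparisons gave 284 higher and 359 lower with GFP and 326 and 343 with TBX18, and A83-01 gave 118 higher and 141 lower. That scaling moved the median log2 difference of all genes from 0.09 to -0.25, from 0.23 to -0.15 and from -0.17 to 0.01.

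The 236 genes that were higher in leukocytes in all 5 libraries were followed through the same comparisons. Of the 235 measured between days with GFP, 52 were higher and 12 lower at day 14, beside 8.54% and 2.95% of all genes, with a median log2 difference of 0.45 beside 0.09. With TBX18, 61 of 236 were higher and 14 lower, beside 10.3% and 2.71%, with a median of 0.57 beside 0.23. These counts depended on the deeper day 3 cluster, in which genes high in the first cluster stood lower, as given above. Without it, 22 of 235 were higher (9.36%) and 35 lower (14.9%) with GFP, beside 12.5% and 3.25% of all genes. The median was -0.07 beside 0.19. With TBX18, 38 of 236 were then higher (16.1%) and 23 lower (9.75%), beside 13.2% and 2.37%. The median was 0.19 beside 0.31. Between TBX18 and GFP, 5 of 222 were higher and 0 lower at day 3, beside 0.718% and 0.112% of all genes. At day 14, 17 of 236 were higher (7.2%) and 11 lower (4.66%), beside 2.17% and 1.29%. The medians were -0.01 beside -0.02 at day 3 and 0.23 beside 0.10 at day 14. With A83-01, 22 of 236 were higher (9.32%) and 27 lower (11.4%), beside 1.78% and 3.68%. The median was -0.18 beside -0.17. These genes have high leukocyte counts and so narrow intervals, which makes passing easier for them than for other genes. They were also chosen on the leukocyte levels of these same libraries, which limits how they can differ between them. The counts describe the list and test nothing.

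**Figure D5:**
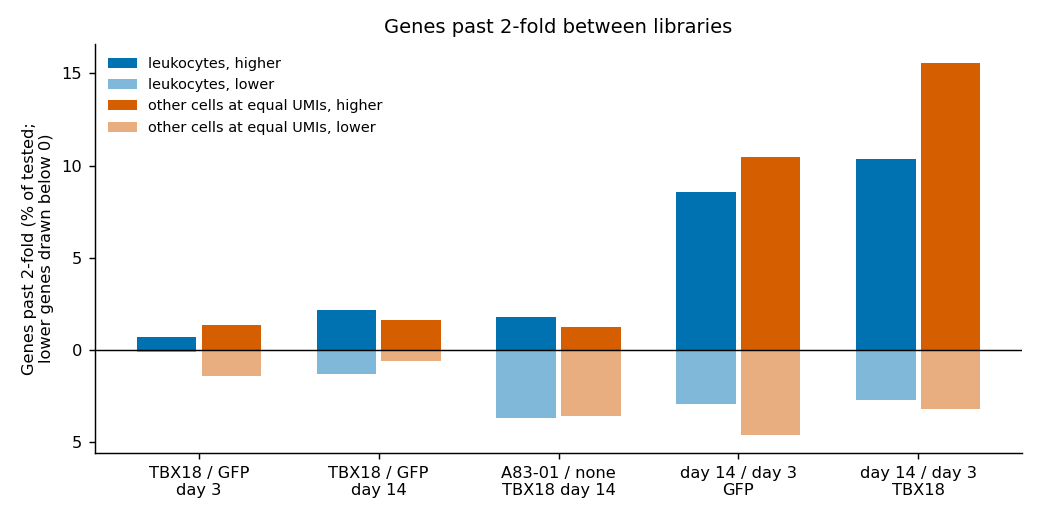
Genes past 2-fold between 2 libraries, in percent of the genes tested (vertical axis; genes lower in the first-named library are drawn below 0), for leukocytes and for other cells drawn to the same number of UMIs. The bars are largest for the 2 comparisons of days, at 11.5% and 13% of genes in leukocytes, and in leukocytes smallest for TBX18 over GFP at day 3, at 0.831%.

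Across the series, the tables held 6424 to 8859 barcodes per library, with medians of 15610 to 28566 UMIs. Any 2 libraries shared 7 to 20 barcode sequences, none of them a leukocyte in both and 2 of them a leukocyte in either. Nothing in the labels ties a library to a number of animals or cultures.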

How the data were processed

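Single-cell libraries were made with a droplet 3' kit, per the labels' protocols. STAR 2.7.8a, Partek and Rnor_6.0 appear in the submitters' processing notes, with no role given. The authors deposited day 3 values in the form of estimated counts (judged from the values: 99.7% whole within 0.05) and the day 14 tables as log2 of CPM plus 1, although counts had been assumed for all. UMIs of day 14 were recovered by dividing each cell's CPM by its most common nonzero value, which gave 99.7% whole values. CPM was scaled over the 15077 features listed in all tables. Members were compared over 15071 genes of these, with a pseudocount of 0.5 CPM and a minimum mean of 20 CPM. Clustering (Leiden, resolution 1, 2000 variable genes, 30 components, 20 neighbours; scanpy 1.11.5) left out the rule genes. Doublets were scored with Scrublet and kept. Intervals are exact binomial (Clopper-Pearson), Poisson or conditional binomial at 95%; a count of 0 is read against 3 counts. The interval code was tested on simulated data. Named were the 3 rule genes and, since IDs carry no names, the 2 IDs with the highest smallest and the 2 with the lowest largest log2 ratio; lists by symbol could not be applied. The members and lists were chosen with earlier results of these data known. No test between groups was possible with 1 library each.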

Additional observations from a re-analysis of the deposited data

Results flagged for a closer look

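A pair of IDs that are low in leukocytes differed in opposite directions between comparisons. With 1 library per group the difference between the directions was not tested. ENSRNOG00000033844 was higher with TBX18 than with GFP at day 3, by a log2 difference of 3.46 in leukocytes, and lower with TBX18 at day 14, where it had 0 UMIs: taken against 3 counts over the group, the log2 difference was -1.07, and the exact limit, which includes the counting error of the 9 UMIs with GFP, was -0.46. From day 3 to day 14 it was higher by 1.57 with GFP (interval 0.16 to 2.90; -0.18 to 2.56 under median-of-ratios scaling) and lower with TBX18, by a log2 difference of -2.96 against 3 counts, with an exact limit of -2.64 (-2.36 without the deeper day 3 cluster). Its level in other cells of the same libraries was 12.3 CPM with GFP and 125.6 CPM with TBX18 at day 3, and 22.6 and 5.48 CPM at day 14, the same order. ENSRNOG00000015904 was higher at day 14 than at day 3 with GFP, by a log2 difference of 1.37 (2.54 without the deeper day 3 cluster and 1.92 within the day 14 range of genes and UMIs), and lower with TBX18, by -1.18; that last value was -0.15 (interval -0.88 to 0.54) without the deeper day 3 cluster and 0.98 (0.11 to 1.87) within the day 14 range of genes and UMIs, which ends the opposition. Its level in other cells was 75.3 and 118.7 CPM at the 2 days with GFP and 207.7 and 153.1 CPM with TBX18, also the same order. The leukocyte values rest on 0 to 222 UMIs per library.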

How the results depend on the processing

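Of 217 alternative values, 135 stayed within their counting interval or, for counts of genes, within 1.5 times, 81 moved and 1 reversed: ENSRNOG00000015904 in leukocytes, day 14 over day 3 with TBX18, at 0.98 within the day 14 range of genes and UMIs. Some of the 135 could not move. For the day 14 libraries and the comparisons between them, the day 14 range and leaving out the deeper day 3 cluster repeat the main value. Dropping the minimum of genes does so for the day 14 shares. Shares are given for GFP day 3, TBX18 day 3, GFP day 14, TBX18 day 14 and A83-01, where they moved. Thinning to 5000 UMIs gave 1.58%, 0.992%, 2.01%, 0.588% and 0.328%. At least 2 Ptprc UMIs gave 2.34%, 1.79%, 1.53% and, with A83-01, 0.381%. Both adaptors without Ptprc gave 5.07%, 3.41% and 3.42% in the first 3 libraries, and leaving out top doublet scores gave 3.01% and 2.10% in the first 2. The day 14 range of depth gave 3.05% with GFP at day 3. Settings chosen after seeing the data were 10 adaptor UMIs (4.75%, 3.17%, 3.33%) and no deeper cluster (2.42%, 1.84%). Thinning lowered the share of leukocytes with EGFP at day 3 to 1.75%, and that with ZsGFP at day 3 or with TBX18 in any TBX18 culture to 0%. For these counts of 0 only the exact upper limits are given: 2.28% at day 3, 4.56% with TBX18 at day 14 and 7.71% with A83-01. Thinned cells outside the leukocyte-rich clusters fell too, at day 3 to 7.82% for ZsGFP and 5.16% for TBX18. For TBX18 they fell to 1.07% at day 14 and to 1.32% with A83-01. Genes lower in all 5 libraries numbered 0 with a pseudocount of 5 CPM, 1 with median-of-ratios scaling, 5 with all 3 genes required, 76 without top doublet scores and 87 in the first cluster only; leaving out each library gave 2 to 53, and 236 to 249 for higher genes. Without a minimum level, 468 genes were higher in all 5, and 109, 1050 and 1076 passed 2-fold for TBX18 over GFP at day 3 and for day 14 over day 3 with GFP and with TBX18. The cause of these shifts was not tested. Between 46 and 286 leukocytes per library limit every share of leukocytes. No paired analysis was possible because each group has 1 library.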
